A study of Mus musculus with 8 samples.

Results

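The methionine cycle and the glycine cleavage system were followed through 9 mouse genes, chosen by name as members of a pathway: Mtr, Mtrr, Mat2a, Mat2b, Ahcy, Cbs, Gldc, Gcsh and Amt. A table of embryonic brain RNA held 8 of the 9 among 14496 protein-coding genes, and a table of mouse embryonic stem cells (mESC) held 8 of the 9 among 9217 genes. Amt was not analysed in brain and Ahcy was not analysed in mESC.

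In the methionine cycle, methionine synthase (Mtr) moves a methyl group from folate to homocysteine, and its partner Mtrr keeps the vitamin B12 cofactor of Mtr in its active form. Mat2a, with the regulatory subunit Mat2b, turns methionine into S-adenosylmethionine (SAM), the methyl donor of DNA and histone methylation. Ahcy splits the S-adenosylhomocysteine left after each methyl transfer, and Cbs leads homocysteine out of the cycle towards cysteine. The glycine cleavage system of mitochondria (the decarboxylase Gldc, the lipoate-carrying protein Gcsh, the aminomethyltransferase Amt and the dehydrogenase Dld) breaks glycine down and loads its carbon onto folate. Mice that lack Gldc or Amt function can develop neural tube defects.

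The NTD (neural tube defect) group was 3 brain libraries of embryos whose dams ate a low folate diet and were injected with methotrexate, an antifolate, at 1.5 mg/kg on gestational day 7.5. Those embryos were small and delayed, with hindbrain malformation or spina bifida. The control group was 3 brain libraries of embryos with closed neural tubes from dams labelled with normal saline; the diet of these dams is not stated in the labels, so diet and drug cannot be told apart. Both kinds of embryo were examined between days 9.5 and 10.5, and the labels give neither strain, age per library nor litter. The p-values therefore set a difference between groups only against the spread among these samples, which may be technical. The mESC libraries, 1 per group, were Sv129 cells, FA0 in folate-free medium and FA4 in the same medium with folate added to 4 mg/L.

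Levels are in CPM, counts scaled to a common library size. Brain libraries held 17335564 to 26788304 counts in NTD and 18959473 to 26238026 in control. Log2 CPM correlated across genes at 0.718 to 0.749 among NTD libraries and at 0.76 to 0.91 among control libraries (genes are not independent replicates). All 10 trophoblast markers were in the table, 7 of them called higher in NTD, and their sum was 1262 to 1955 CPM in NTD and 1.57 to 3.08 CPM in control, where Tpbpa was at 0 counts. For 10 yolk sac and visceral endoderm markers, 5 of them called higher, the sums were 12620 to 14940 CPM in NTD and 203 to 593 CPM in control. All 10 neuron markers were called lower in NTD, with sums of 826 to 968 CPM against 4256 to 6041 CPM in control. Neural progenitor markers, 2 of 8 called lower, summed to 839.6 to 1512 CPM in NTD and 1927 to 2626 CPM in control. No marker was called among 5 erythroid genes (15730 to 17670 CPM in NTD, 8472 to 20780 CPM in control), 5 macrophage genes (2.31 to 14.3 CPM in NTD, 17.9 to 19.6 CPM in control, with Csf1r at 0 counts in NTD), 4 endothelial genes (243 to 286 CPM in NTD, 184 to 213 CPM in control) or the 4 pluripotency genes in the table (6.37 to 18.6 CPM in NTD, 4.74 to 23.1 CPM in control). Every brain comparison below is between these same libraries; the part of these cell types in it was not tested. In bulk RNA, fewer cells of a type cannot be told apart from less RNA per cell.

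In brain, no member passed the test between NTD and control, although the log2 fold changes of all 6 members that passed the filter on low counts lay above 0, as did those of 49.4% of the genes tested. Mat2b, Ahcy and Gldc had all 3 NTD libraries above all 3 control libraries. With edgeR's quasi-likelihood test and Benjamini-Hochberg adjustment over 11626 genes, 0 members were called higher and 0 lower, where 1.89% of all genes tested were called higher and 0.998% lower. At an unadjusted p under 0.05, 4 of the 6 lay higher and 0 lower, against 8.31% and 6.73% of all genes. DESeq2 called 1 member, Ahcy (adjusted p = 0.0303), and limma-voom 0. Over all 11626 genes and both directions, DESeq2 called 1036 and limma-voom 219, against 336 by edgeR. The median log2 fold change of the 6 was 0.91, against -0.015 over all genes tested. The 3 members with separated groups compare with 12.4% of all tested genes whose NTD values all lay above. Missing the threshold does not show that a member was alike in NTD and control: the intervals below give the sizes that remain possible.

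**Figure D1:**
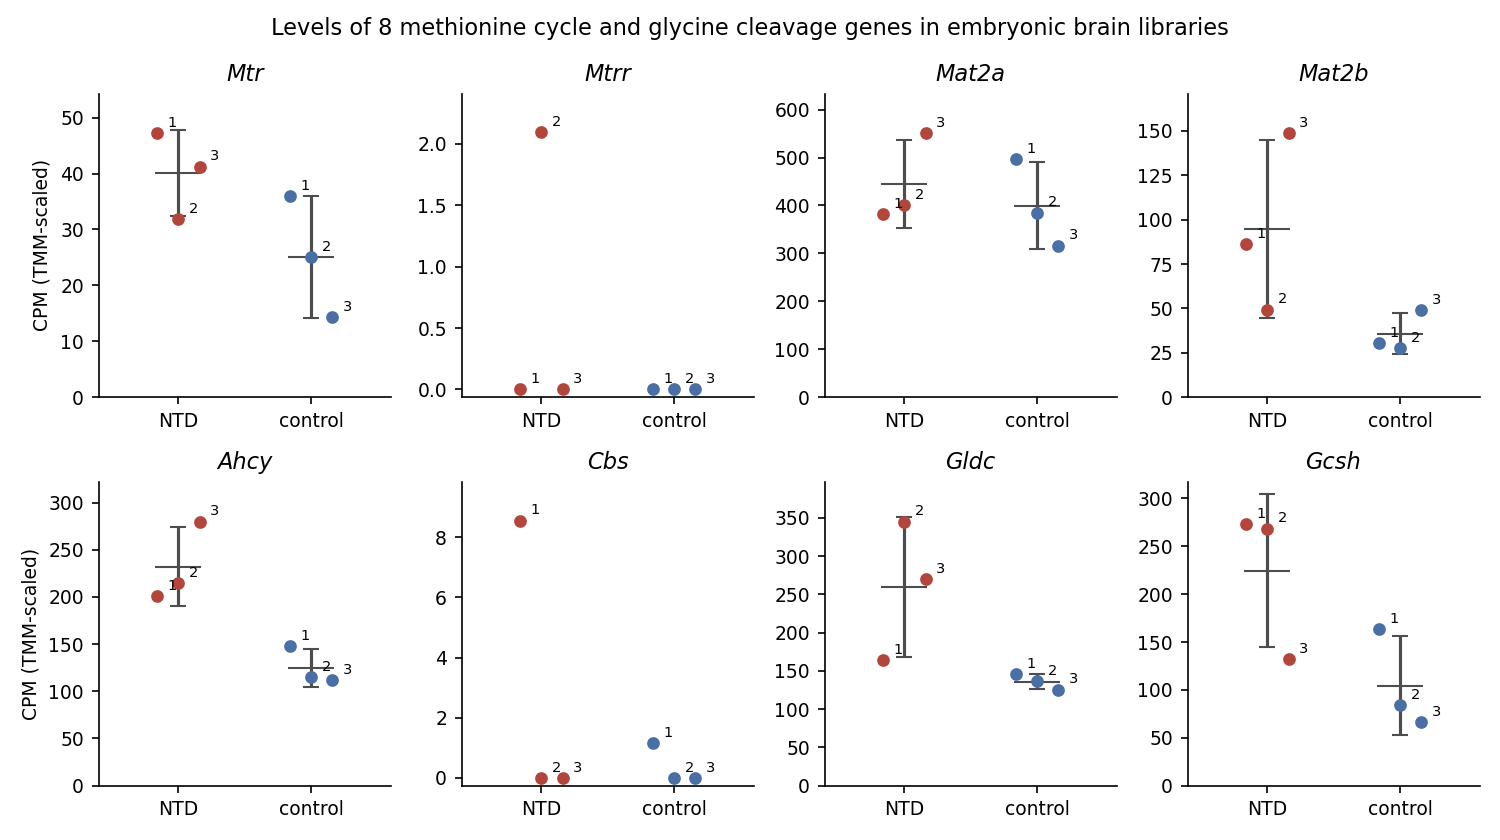
Counts after TMM scaling (CPM, the unit used in the text) of 8 genes in embryonic brain, 1 point per library, numbered by replicate, with NTD left of control; bars are mean ± SD, and Mtrr and Cbs, at 0 in most libraries, have none. Mat2b, Ahcy and Gldc have all NTD points above all control points, while Mat2a, Mtr and Gcsh overlap.

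Mtr (ENSMUSG00000021311, GRCm38 chr13:12182712-12258113, minus strand), the methionine synthase, was the lowest of the tested members. It had 47.2, 31.9 and 41.2 CPM in NTD libraries 1 to 3, against 36.01, 25.1 and 14.2 CPM in control libraries 1 to 3. The groups overlapped, because control library 1 lay above NTD library 2. The mean was 40.1 ± 7.74 CPM in NTD and 25.1 ± 10.9 CPM in control (SD, n = 3 each), which is 0.68 ± 0.52 (SE) in log2 fold change (95% interval -0.49 to 1.84; edgeR adjusted p = 0.666).

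Mtrr (ENSMUSG00000034617, GRCm38 chr13:68560780-68582149, minus strand), the partner that reactivates Mtr, held 54 counts in NTD library 2 and 0 counts in the other two NTD libraries and in all 3 control libraries. Cbs (ENSMUSG00000024039, GRCm38 chr17:31608894-31637238, minus strand), the entry to transsulfuration, held 219 counts in NTD library 1 and 27 in control library 1, with 0 in the other two libraries of each group. A count of 0 allows up to 0.116 to 0.18 CPM in NTD and 0.11 to 0.157 CPM in control (3 counts per library, counting error only). Neither gene passed the expression filter, so neither was tested, and no fold is given. There were 6440 genes that averaged 500 counts or more, and some of them held zeros too. Of these, 6, 3 and 9 stood at 0 in NTD libraries 1 to 3, and 74, 14 and 1 in control libraries 1 to 3. Mtrr and Cbs averaged fewer counts than that and were not among these genes. The cause of the zeros was not tested.

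The subunits of SAM synthesis are a catalytic and a regulatory protein. Mat2a (ENSMUSG00000053907, GRCm38 chr6:72432799-72439558, minus strand), the catalytic one, had 382, 400.3 and 551 CPM in NTD, against 496, 385 and 316 CPM in control. The groups overlapped throughout, with means of 445 ± 92.5 CPM in NTD and 399 ± 90.8 CPM in control (SD, n = 3 each). In log2 fold change this is 0.16 ± 0.24 (SE; 95% interval -0.39 to 0.70; edgeR adjusted p = 0.879), and -0.10 without NTD library 3. An opposite-strand transcript, Particl, overlaps Mat2a exons, and without a stated strand setting its reads cannot be separated. A pseudogene, Gm9523, matches Mat2a at 95.2% over 1065 bases.

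Mat2b (ENSMUSG00000042032, GRCm38 chr11:40679314-40695203, minus strand), the regulatory subunit, had 86.2, 49.3 and 149 CPM in NTD, against 30.6, 27.6 and 49.1 CPM in control. NTD library 2 lay only just above control library 3, and NTD library 3 was the highest of the 6. The mean was 94.8 ± 50.3 CPM in NTD and 35.8 ± 11.6 CPM in control (SD, n = 3 each). The log2 fold change of 1.41 ± 0.46 (SE; 95% interval 0.37 to 2.45) was the largest of the 6, and it missed the threshold (edgeR adjusted p = 0.167). Without NTD library 3 it was 0.82 (adjusted p = 0.449).

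Within a library, the ratio of Mat2a to Mat2b per kilobase of exon was 4.95, 9.05 and 4.13 in NTD, against 18.1, 15.5 and 7.19 in control. Control library 3 fell inside the NTD range. The difference on the log2 scale was -1.15 (exact two-sided permutation p = 0.2, adjusted over the 2 ratios 0.4; 3 against 3 libraries cannot go below 0.1).

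Ahcy (ENSMUSG00000027597, GRCm38 chr2:155059310-155074497, minus strand), the S-adenosylhomocysteine hydrolase, had 201, 215 and 279.9 CPM in NTD, against 148, 115 and 112 CPM in control. All NTD libraries lay above all control libraries, with means of 232 ± 42.05 CPM in NTD and 125 ± 20.2 CPM in control (SD, n = 3 each). Its log2 fold change was 0.89 ± 0.25 (SE; 95% interval 0.34 to 1.45), and its edgeR adjusted p of 0.102 was the smallest among the members.

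Ahcy has a near-identical copy, Gm4737, whose transcript matched that of Ahcy at 99.7% over 2083 of 2543 bases, so reads of the pair are uncertain. The pseudogenes Gm9826 (99.2% over 1299 bases) and Gm5638 (94.5% over 1128 bases) also resemble Ahcy. Neither is among the protein-coding genes listed for brain, so reads that fell to them are not known and the sum below leaves them out. Gm4737 had 274, 191 and 300.4 CPM in NTD, against 193, 134 and 217 CPM in control, groups that overlapped (edgeR adjusted p = 0.473). Ahcy took 42.3%, 53% and 48.2% of the counts of the pair in NTD and 43.4%, 46.2% and 34% in control. Summed, a choice made after seeing the data, the pair had a log2 fold change of 0.67 (edgeR adjusted p = 0.173).

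Gldc and Gcsh had intervals above 0 in brain without being called. Gldc (ENSMUSG00000024827, GRCm38 chr19:30098447-30175429, minus strand), the glycine decarboxylase, had 164, 345 and 269.96 CPM in NTD, against 146, 136 and 126 CPM in control. The 3 control libraries lay close together and NTD library 1 stood nearest to them, without overlap. The mean was 259.6 ± 91.1 CPM in NTD and 136 ± 10.1 CPM in control (SD, n = 3 each), giving 0.93 ± 0.29 in log2 fold change (SE; 95% interval 0.28 to 1.59; edgeR adjusted p = 0.146). Without NTD library 2, the highest, it was 0.60 (adjusted p = 0.393).

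Gcsh (ENSMUSG00000034424, GRCm38 chr8:116981810-116993537, minus strand), the H protein that carries the lipoyl arm between the other subunits, had 273, 268 and 133 CPM in NTD, against 163, 84.0 and 66.0 CPM in control. NTD library 3 lay below control library 1, so the groups overlapped. The mean was 225 ± 79.9 CPM in NTD and 104 ± 51.8 CPM in control (SD, n = 3 each), with a log2 fold change of 1.11 ± 0.40 (SE; 95% interval 0.20 to 2.01; edgeR adjusted p = 0.215). In a setting chosen after seeing the data, with neither control library 1 nor NTD library 3, the value was 1.84 (adjusted p = 0.0131). Those are the libraries whose Gcsh values made the groups overlap, so this value is no support for a difference. Pseudogenes, such as Gm37201 at 91.4% identity over 523 bases, resemble Gcsh. The ratio of Gcsh to Gldc per kilobase of exon was 6.44, 3.00 and 1.89 in NTD and 4.32, 2.38 and 2.03 in control (exact two-sided permutation p = 0.7, adjusted 0.7), and the sign of its log2 difference, 0.27, turned to -0.21 without NTD library 1.

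**Figure D2:**
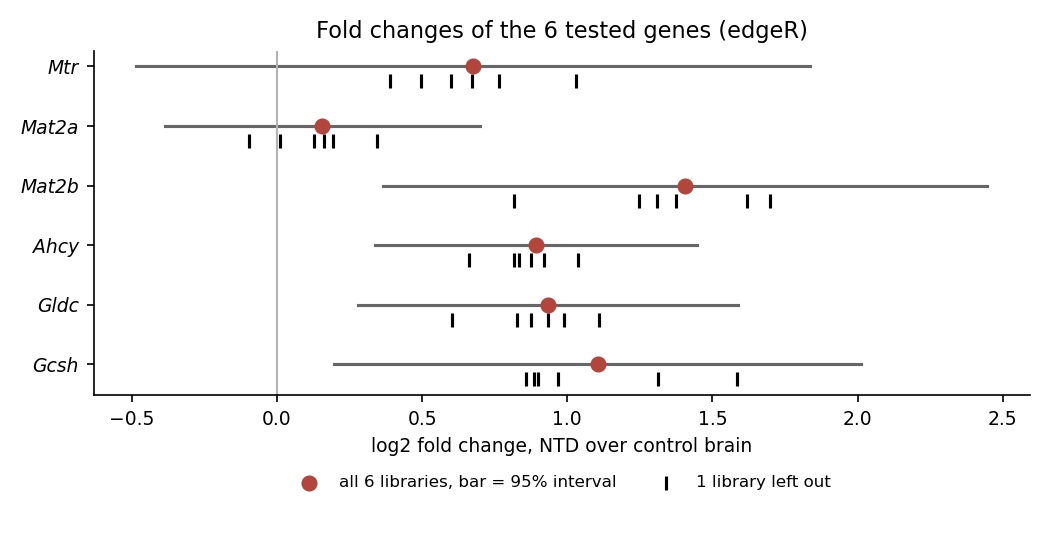
Log2 fold change of NTD over control brain for the 6 tested genes; points are edgeR estimates from all 6 libraries, horizontal bars their 95% intervals, and black ticks the estimates with 1 library left out. The intervals of Mat2b, Ahcy, Gldc and Gcsh lie above 0, those of Mtr and Mat2a span it, and the ticks of Mat2a fall on both sides of 0.

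The promoters of the 4 members whose intervals lay above 0 in the brain comparison, before adjustment over all genes, are shown. Each line gives the 250 bases before the RefSeq start of the gene, 5′ to 3′ on the gene's own strand, and capitals mark CCAAT, the box bound by the factor NF-Y, and GGGCGG, the GC box bound by SP1-type factors, read on both strands.
Mat2b, GRCm38.p6 chr11:40692683-40692932, minus strand: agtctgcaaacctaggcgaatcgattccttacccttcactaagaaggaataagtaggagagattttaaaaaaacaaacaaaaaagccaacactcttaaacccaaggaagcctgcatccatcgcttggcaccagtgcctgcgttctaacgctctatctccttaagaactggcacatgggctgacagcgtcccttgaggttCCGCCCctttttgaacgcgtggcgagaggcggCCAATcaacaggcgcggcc
Ahcy, GRCm38.p6 chr2:155074498-155074747, minus strand: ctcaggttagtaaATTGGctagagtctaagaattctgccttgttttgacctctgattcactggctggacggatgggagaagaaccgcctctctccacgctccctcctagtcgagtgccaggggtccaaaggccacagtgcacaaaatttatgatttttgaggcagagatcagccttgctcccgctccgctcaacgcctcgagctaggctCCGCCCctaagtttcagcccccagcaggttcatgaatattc
Gldc, GRCm38.p6 chr19:30175442-30175691, minus strand: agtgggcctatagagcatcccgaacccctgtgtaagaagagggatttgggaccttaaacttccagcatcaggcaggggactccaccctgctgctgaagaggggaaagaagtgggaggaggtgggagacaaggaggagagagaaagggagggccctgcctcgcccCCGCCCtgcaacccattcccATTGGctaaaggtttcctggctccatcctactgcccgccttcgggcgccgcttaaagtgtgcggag
Gcsh, GRCm38.p6 chr8:116993499-116993748, minus strand: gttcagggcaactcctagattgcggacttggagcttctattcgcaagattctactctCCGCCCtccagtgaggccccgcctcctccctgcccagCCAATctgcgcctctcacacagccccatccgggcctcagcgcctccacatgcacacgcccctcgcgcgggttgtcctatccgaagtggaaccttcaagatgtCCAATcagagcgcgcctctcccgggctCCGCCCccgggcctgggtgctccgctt
All 9 members matched an entry of the RefSeq promoter table, and all 9 held both CCAAT and GGGCGG in this window. CCAAT was in 33.8% of 32851 RefSeq promoters and in 36.5% of those of 8693 genes tested in brain, and GGGCGG was in 32.7% of all and 60.2% of the brain-tested ones. The E-box CACGTG was in 1 member promoter, that of Cbs, in 6.02% of all promoters and in 8.39% of the brain-tested ones. TGATGNAA, a pattern of amino acid response elements, was in 0 member promoters, in 3.45% of all and in 1.85% of the brain-tested ones. These are letter matches, overlapping ones included, and not measured binding.

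Per kilobase of exon, the members kept nearly the same order in NTD and control brain. In NTD the order was Gcsh (142 ± 50.6 CPM per kb), Mat2a (99.1 ± 20.6), Ahcy (82.7 ± 15.0), Gldc (42.6 ± 15.0), Mat2b (18.9 ± 10.1), Mtr (4.71 ± 0.908) and then Cbs and Mtrr (SD, n = 3). In control it was Mat2a (89.0 ± 20.2 CPM per kb), Gcsh (66.2 ± 32.8), Ahcy (44.5 ± 7.20), Gldc (22.3 ± 1.66), Mat2b (7.15 ± 2.32), Mtr (2.95 ± 1.28) and again Cbs and Mtrr (SD, n = 3). The ranges of Gcsh, Mat2a and Ahcy overlapped at each step between neighbours in both groups. The steps from Ahcy to Gldc, from Mat2b to Mtr and from Mtr to Cbs were without overlap in both groups, and the step from Gldc to Mat2b overlapped in NTD but not in control.

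**Figure D3:**
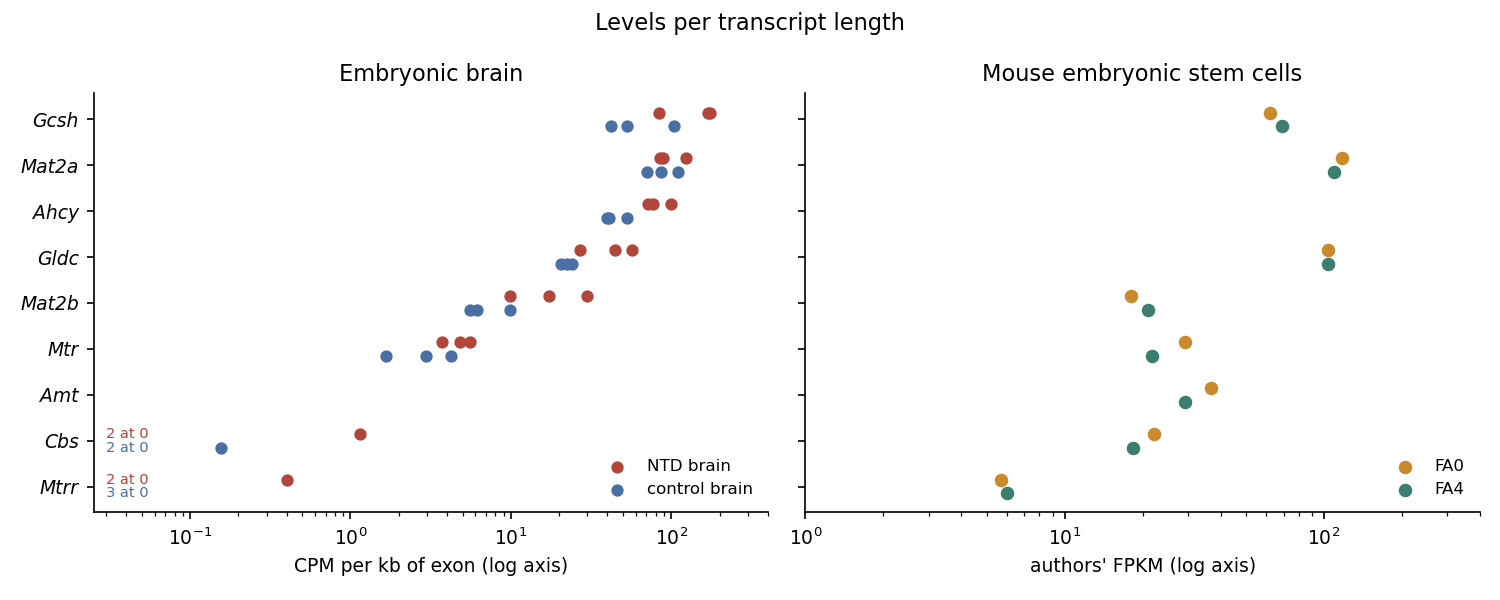
Levels per transcript length on log axes. Left, CPM per kb of exon in each NTD and control brain library, with the number of libraries at 0 written for Cbs and Mtrr; right, the authors' FPKM in the FA0 and FA4 stem cell libraries. Mat2a, Gcsh and Gldc lie high in both panels, Mtrr is lowest in the stem cells, and Cbs and Mtrr lie at the low end in brain, where their ranges overlap.

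Over the 6 brain libraries, the profile of Ahcy was nearest to those of Nhp2l1, Hspe1 and Rassf3, with root mean square differences of 0.101, 0.104 and 0.109 in centred log2 CPM, against a spread of 0.485 for Ahcy itself. The profile of Mat2a, the member with the largest p, was nearest to Ing1, Ncbp1 and Map4 (0.0991, 0.11 and 0.111, against a spread of 0.263). These likenesses are descriptions over 6 libraries that fall into 2 groups.

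Around these genes, 44 neighbours of the pathway were listed, and 37 of them were tested in brain. Only Adk, the adenosine kinase that clears the adenosine released by Ahcy, was called higher in NTD, and 0 were called lower (1.89% and 0.998% of all genes). Adk had 118, 146 and 141 CPM in NTD, against 61.5, 61.9 and 51.4 CPM in control. The groups stood well apart, with a log2 fold change of 1.21 ± 0.27 (SE; 95% interval 0.60 to 1.83; edgeR adjusted p = 0.0496). Leaving out any 1 library ended the call of Adk, with adjusted p between 0.0843 and 0.177. Of the 37, 10 had all NTD values above control and 2 all below, against 12.4% and 12.1% of all tested genes, and their median log2 fold change was 0.72.

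Among 6 tested side enzymes of the methionine cycle, Adk was the 1 call. Bhmt and Mat1a, enzymes of methionine metabolism that mark adult liver, were singled out after their values were seen. Bhmt had 107, 3.61 and 96.1 CPM in NTD, against 0, 0.0365 and 10.6 CPM in control, and Mat1a had 209, 0.233 and 149 CPM in NTD, against 33.5, 9.46 and 58.2 CPM in control. Both were high in NTD libraries 1 and 3 and low in NTD library 2. The summed level of 5 liver markers, 1 of them called higher, was 3149, 86.9 and 2555 CPM in NTD and 96.7, 8.33 and 578 CPM in control; its part in these values was not tested.

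The glycine cleavage partners had 0 calls among 8 with edgeR, while DESeq2, with 1036 calls over all genes, called Shmt1 higher (adjusted p = 0.0426). Shmt1 and Shmt2, the serine hydroxymethyltransferases that interconvert serine and glycine, had the smallest p. Shmt1 had 91.3, 82.7 and 92.0 CPM in NTD, against 20.8, 40.8 and 46.2 CPM in control (log2 fold change 1.30, edgeR adjusted p = 0.126). Shmt2, the mitochondrial form, had 218, 174 and 232 CPM in NTD, against 109, 100.4 and 151 CPM in control (0.79, adjusted p = 0.165). Both had separated groups. Dld, the L protein of the cleavage system, is added outside the naming rule as its remaining subunit. It had 109, 87.9 and 118 CPM in NTD, against 26.4, 66.4 and 152 CPM in control, and the groups overlapped (adjusted p = 0.869).

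In the other lists edgeR called 0 genes, and DESeq2, with 1036 calls over all genes, called 1, Slc3a2, higher (adjusted p = 0.0289). The median log2 fold change was 1.52 over the tested side enzymes, 0.46 over the glycine cleavage partners and 2.17 over transsulfuration. It was 0.47 over vitamin B12 genes, 0.79 over polyamine and salvage genes, 0.25 over methyl acceptor genes and 0.92 over methionine transport. Over all genes tested it was -0.015. Each list held few tested genes, and the transsulfuration median was the value of 1 gene, Cth. Cth had 4.77, 5.27 and 26.5 CPM in NTD, against 3.28, 3.18 and 1.67 CPM in control. Of 3 transsulfuration genes, Suox, the sulfite oxidase, had a log2 fold change of -1.09 (edgeR adjusted p = 0.476) and Cth, the cystathionine lyase after Cbs, one of 2.17 (0.577). Of 6 vitamin B12 genes, Tcn2, the transport protein transcobalamin, had 1.76 (0.185) and Mut, the methylmalonyl-CoA mutase, 0.79 (0.563). Of 8 polyamine and methionine salvage genes, Apip, an enzyme of salvage, had -0.89 (0.242) and Srm, spermidine synthase, 0.83 (0.261). Of 2 genes of small methyl acceptors, Gamt, which makes creatine, had -1.08 (0.83) and Pemt, which methylates phosphatidylethanolamine, 1.58 (0.852). Of 4 methionine transport genes, Slc3a2, the heavy chain of amino acid exchangers, had 1.31 (0.114) and Slc38a2, a neutral amino acid carrier, 0.36 (0.573).

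**Figure D4:**
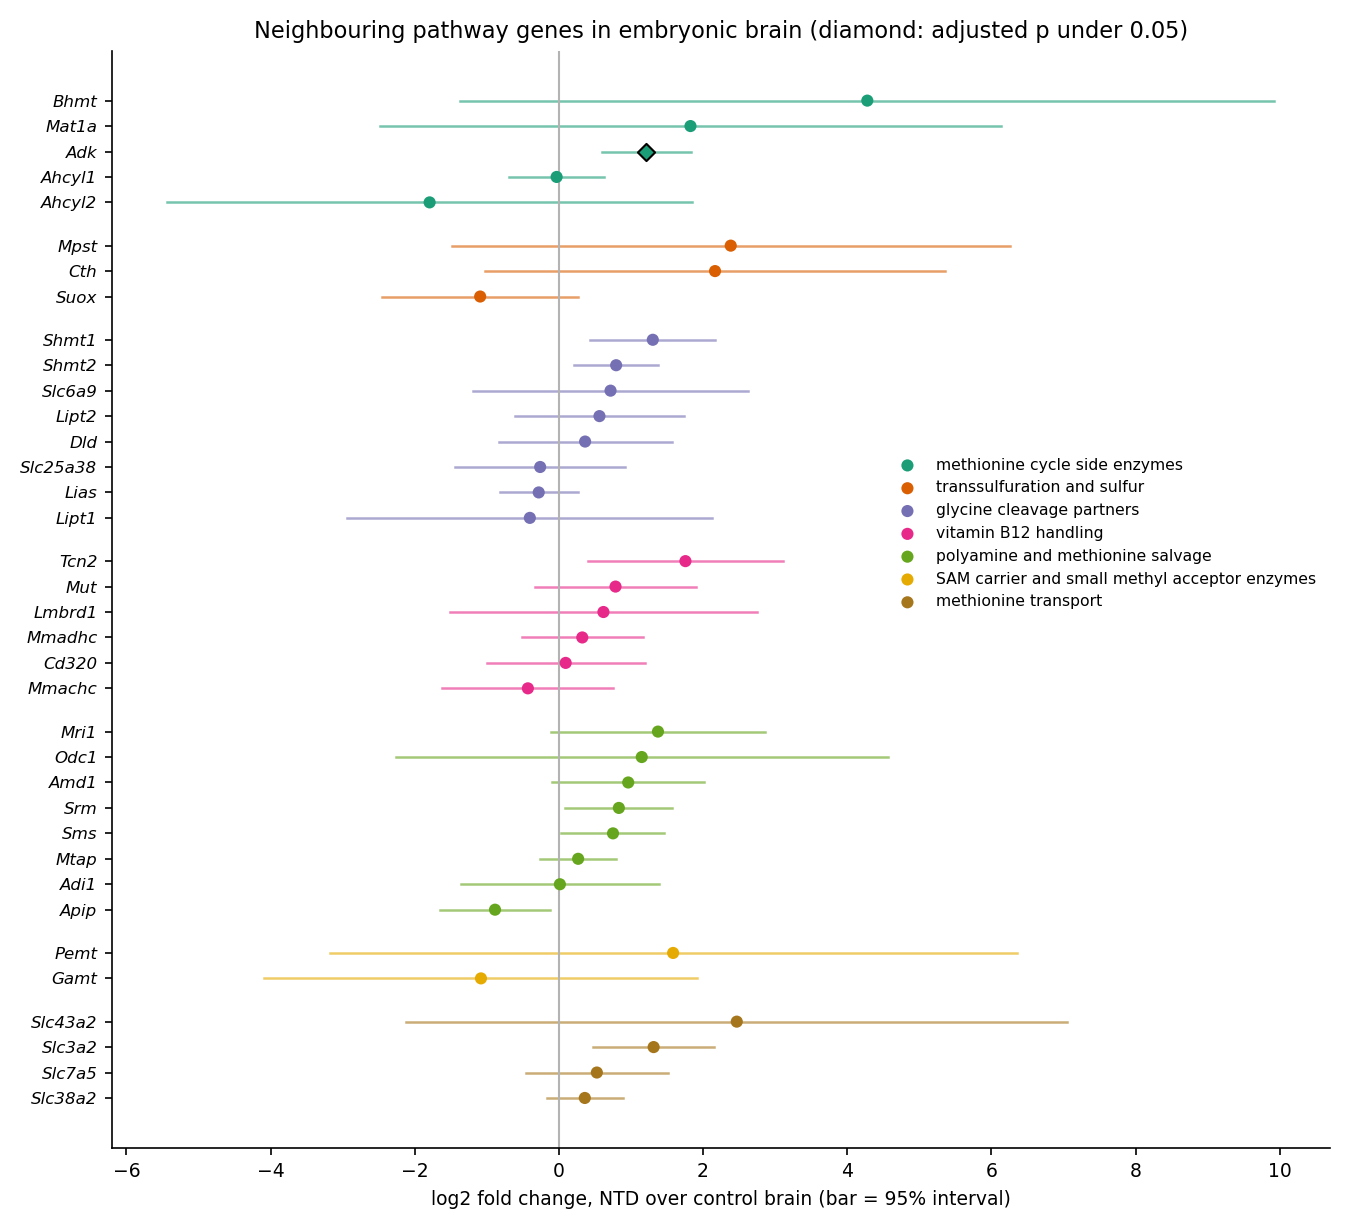
Log2 fold change of NTD over control brain for 36 of the 37 tested neighbours, coloured by list, with 95% intervals. The diamond marks Adk, the 1 gene with an adjusted p under the threshold; the widest interval plotted belongs to Bhmt, at or near 0 in some libraries.

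In mESC, with 1 library per group and therefore no test, 0 of 8 listed members passed a 1.5-fold difference between FA0 and FA4 on the log2(FPKM + 1) scale, while the count ratio of 1, Mtrr, lay beyond it on the lower side. The table listed all 7 pluripotency markers, summing to 1310.0 FPKM in FA0 and 1119 FPKM in FA4. The ratios of FA0 to FA4 were taken as log2(FPKM + 1), where low genes appear less changed than they are, and ran from -0.21 to 0.40 with a median of 0.05. Of 6771 genes averaging 5 FPKM or more, 3.26% passed it upwards and 3.25% downwards, the median was -0.0011, and the 5th and 95th percentiles were -0.494 and 0.508.

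Mtr had the largest ratio, at 29.0 FPKM in FA0 and 21.7 FPKM in FA4. Its estimated counts were 1386 in FA0 and 818 in FA4, a ratio of 1.27 after scaling for depth, with an exact 95% interval from 1.16 to 1.39 that covers counting error only. Amt (ENSMUSG00000032607, GRCm38 chr9:108296853-108302302, plus strand), the aminomethyltransferase, stood at 36.7 FPKM in FA0 and 29.25 FPKM in FA4 (count ratio 1.25, interval 1.09 to 1.44). These intervals of Mtr and Amt lay above 1. The share of all genes with a count interval clear of 1 was not computed, so such an interval does not set a member apart. Some pathway neighbours had FA0 to FA4 count intervals clear of 1 too, such as Shmt2 (1.02 to 1.13), Srm (0.789 to 0.996) and Slc38a2 (0.868 to 0.969). Those of other neighbours held 1, such as Shmt1 (0.889 to 1.07) and Slc3a2 (0.969 to 1.08).

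Mtrr was the lowest member, at 5.67 FPKM in FA0 and 6 FPKM in FA4. Its estimated counts of 63.15 in FA0 and 78.11 in FA4 gave a depth-scaled ratio of 0.605 (interval 0.427 to 0.855), while its FPKM ratio was 0.945. By counts Mtrr was thus more than 1.5-fold lower in FA0 and by FPKM it was not, and the cause of this gap was not tested.

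The other members had count intervals that held 1. Gldc stood at 103.60 FPKM in FA0 and 103.58 FPKM in FA4 (count ratio 1.00, interval 0.945 to 1.06), and Mat2a at 118 FPKM in FA0 and 109.8 FPKM in FA4 (0.995, 0.933 to 1.06). Gcsh was at 62.3 FPKM in FA0 and 68.7 FPKM in FA4 (0.906, 0.808 to 1.02). Mat2b was at 18.05 FPKM in FA0 and 21.04 FPKM in FA4 (0.840, 0.698 to 1.01). Cbs, which had 0 counts in 4 of the 6 brain libraries, was at 22.1 FPKM in FA0 and 18.3 FPKM in FA4 (1.07, 0.871 to 1.32).

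Of the pathway neighbours, 23 averaged 5 FPKM or more in mESC, and on the log2(FPKM + 1) scale 1 passed 1.5-fold upwards and 0 downwards, with a median of -0.08. The gene past it was Abcd4, a transporter of vitamin B12, at 12.75 FPKM in FA0 and 6 FPKM in FA4. Slc25a38, a mitochondrial glycine carrier, was at 11.4 FPKM in FA0 and 16.8 FPKM in FA4, and its count ratio of 0.658 (interval 0.516 to 0.839) was past 1.5-fold. Enoph1, an enzyme of methionine salvage, was at 28.0 FPKM in FA0 and 41.3 FPKM in FA4 (count ratio 0.673, interval 0.583 to 0.778). These 3 were named after their values were seen. Cth, the enzyme after Cbs, was at 181 FPKM in FA0 and 135 FPKM in FA4 (count ratio 1.34, interval 1.25 to 1.44).

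The mESC table also gives, for each gene, peaks of another assay, which the labels leave unnamed. In the authors' deposited table, 15 peaks fell in the 8 members, 5 with a case minus control difference above 0 and 7 below 0 at the authors' adjusted p under 0.05; case is FA0 and control FA4. Over all 23040 peaks of the authors' deposited table the shares were 18.5% above and 41.9% below. The replication behind these adjusted p-values is not known here, so a called peak is not read as a tested difference between FA0 and FA4. The single Amt peak stood at 3.36 in FA0 and -0.09 in FA4 on the authors' log2 scale, a difference of 3.44 in the authors' deposited table. The single Cbs peak stood at 5.00 in FA0 and 7.18 in FA4, a difference of -2.18 in the authors' deposited table. Gldc had 3 peaks there, with differences of 2.81, 1.11 and -0.28, the last not called in the authors' deposited table. Mtr (3.93 and -1.30) and Mat2a (1.93 and -1.56) each had 1 peak in either direction in the authors' deposited table. Both Mat2b peaks (-1.98 and -1.02) and 2 of 3 Mtrr peaks (-1.60 and -1.34) were called lower in the authors' deposited table. The remaining Mtrr peak (-0.66) and the single Gcsh peak (-0.34) were not called in the authors' deposited table.

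**Figure D5:**
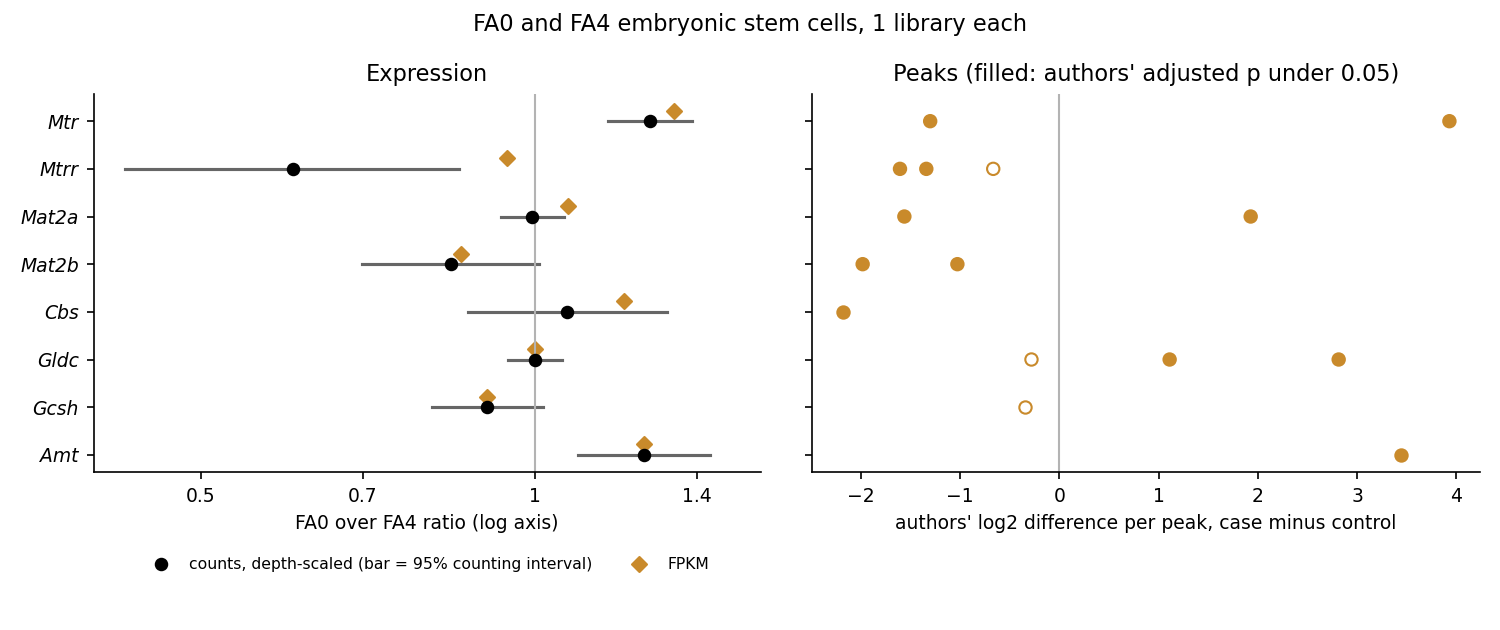
Left, ratio of FA0 to FA4 for the 8 listed members on a log axis, from depth-scaled counts with 95% counting intervals (circles) and from FPKM (diamonds). Right, the authors' log2 difference, case (FA0) minus control (FA4), for each of 15 peaks, filled where the authors' adjusted p was under 0.05; Mtrr, Mat2b, Cbs and Gcsh have peaks below 0 only.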

How the data were processed

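The 6 embryonic brain and 2 mESC libraries are treated as RNA: the labels' protocols describe total RNA depleted of rRNA, although the sample records list the molecule as genomic DNA. The submitters' processing notes name build mm10, HTSeq 0.9.1, HISAT2 2.0.4, cutadapt 1.9.3 and edgeR. Neither annotation nor strand setting is given in the sources used here. The authors deposited raw counts per gene for brain, per the file headers. For mESC the authors deposited an estimated count per gene, FPKM, log2 values and p-values.

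Brain counts were tested with edgeR 4.0.16 (TMM, filterByExpr, robust quasi-likelihood F-test, NTD against control), and adjusted p under 0.05 made a call. Exon lengths came from GENCODE M21. Estimated counts were rounded for exact binomial intervals and scaled by 1.334, the depth of FA0 over FA4 from the median ratio of counts to FPKM over 2953 genes. The method was tested on simulated data, where most changes about as large as the members' largest were not called. Those changes were placed in genes picked at random, so this recovery is not that of the members. The counts and medians of neighbours include 1 gene that is not reported here. Members and lists were chosen with earlier results of these data known. All members are named, with each list's called genes or its 2 smallest p, and the 3 nearest profiles of the members with the smallest and largest p. Alternatives used DESeq2 1.42.0, limma 3.58.1, other scalings and filters, the replicate block and left-out libraries.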

Additional observations from a re-analysis of the deposited data

How the results depend on the processing

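No member was called in any fit except by DESeq2, which called 1 higher (Ahcy, adjusted p = 0.0303), and in a fit chosen after seeing the data that lacked both control library 1 and NTD library 3, with 1 higher (Gcsh, whose groups overlapped through those libraries). The members' log2 fold changes stayed above 0 in all 16 alternatives, apart from Mat2a, which ran from -0.10 (without NTD library 3) to 0.3446 (without control library 1). The number of pathway neighbours called higher was 3 with DESeq2 (Adk, Slc3a2 and Shmt1) and 0 with limma-voom, with library totals alone, without a filter, with the replicate block, and when that pair of libraries was left out. Leaving out 1 library each gave 0 to 1 neighbours, Slc3a2 without control library 1 and Bhmt without control library 3. Over the alternatives the adjusted p of Adk ran from 0.00248 to 0.177. Same-numbered libraries correlated at -0.0214 to 0.0929 in their deviations from the group means, so the numbers were not taken as pairs. With the replicate block, 0 members were called, and Adk had an adjusted p of 0.118. Over all genes, 336 were called, against 1036 by DESeq2, 219 by limma-voom, 205 with the replicate block and 50 to 303 with 1 library left out. Library totals alone moved the median of all genes to -0.11. With 1 library left out, the log2 difference in the Mat2a to Mat2b ratio ran from -1.56 to -0.892 and that of Gcsh to Gldc from -0.206 to 0.676. Low counts left Mtrr and Cbs without a test in brain.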
